A study of Mus musculus with 17 samples.

Results

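The genes described here are 8 genes of the ubiquitin pathway that are abundant in reticulocytes, the youngest circulating red cells, namely Ubb, Ube2o, Ube2l6, Rnf10, Mkrn1, Trim58, Dcaf12 and Fbxo7, out of 49585 genes in the deposited tables. They were taken by name, and 4 of them, Ube2o, Rnf10, Mkrn1 and Dcaf12, were chosen by their read counts, for being lower in MG than in AG, so their levels are given as a description without a test. Plasma cell-free RNA (cfRNA), the RNA left in plasma after blood cells are spun out, was sequenced from wild type C57BL/6J mice aged 13 weeks in the MHU-1 mission. Of these, 6 mice lived in microgravity on the ISS (MG), 6 lived on the ISS in a centrifuge giving artificial 1 G (AG), and 5 were ground controls (GC), giving 17 libraries with 1 library per mouse. Total counts ran from 115515 to 277682 in the AG libraries, from 113746 to 223189 in MG and from 84657 to 195103 in GC.

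Ubiquitin is a small protein that is linked to other proteins by an activating E1 enzyme, a conjugating E2 enzyme and an E3 ligase, and chains of it send the target to the proteasome. A maturing red cell has no nucleus and clears its organelles, ribosomes and surplus proteins, and the ubiquitin system takes part in this clearance. Transcripts of the genes for several E2 enzymes, ligases and substrate adaptors accumulate late in red cell maturation, when most other transcripts are lost.

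The libraries were made with a small RNA kit and read as pairs of 36 bases, so near-identical genes could share reads, and how reads with several matches were counted is not given in the sources used here. Of the distinct 36-base stretches of the Ubb transcripts, 49.8% were also in transcripts of other genes, against 13.3% for Ube2l6, 12.3% for Mkrn1, 3.93% for Fbxo7, 0.470% for Dcaf12, 0.364% for Rnf10, 0.186% for Trim58 and 0% for Ube2o. Ubb on chr11:62551171-62553213, plus strand, encodes a polyubiquitin made of 4 head-to-tail repeats of 228 bases that differ from each other at 2 to 10 bases. Its second repeat is shown with the most similar stretch of Gm8797, a protein-coding gene, because this shows how much sequence a read of Ubb can share with a gene outside the 8. Capitals mark bases that differ from the Ubb repeat.
Ubb repeat: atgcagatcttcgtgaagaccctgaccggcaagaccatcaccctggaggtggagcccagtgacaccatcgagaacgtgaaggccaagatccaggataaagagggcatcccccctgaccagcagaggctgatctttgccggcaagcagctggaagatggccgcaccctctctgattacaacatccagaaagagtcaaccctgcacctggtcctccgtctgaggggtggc
Gm8797: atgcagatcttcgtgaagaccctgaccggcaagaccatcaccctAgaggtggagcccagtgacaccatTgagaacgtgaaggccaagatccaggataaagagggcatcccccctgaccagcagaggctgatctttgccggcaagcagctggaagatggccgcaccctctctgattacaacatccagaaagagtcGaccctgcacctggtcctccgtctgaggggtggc
The Gm8797 stretch differed from the Ubb repeat at 3 bases and had a longest identical run of 125 bases. Gm8797 held 29.4% of the Ubb stretches and had 84 reads in all, with 2 to 7 in each AG library, 3 to 8 in MG and 0 to 9 in GC. The pseudogene Gm1821 held 48.9% of the Ubb stretches and was listed at 0 reads. The Ubb values below are therefore uncertain as values of that gene alone. For Mkrn1 the stretches shared most often were in Gm10244, an antisense gene with 6 reads, at 5.84%, and in the pseudogene Mkrn1-ps1, with 0 reads, at 5.35%.

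**Figure D1:**
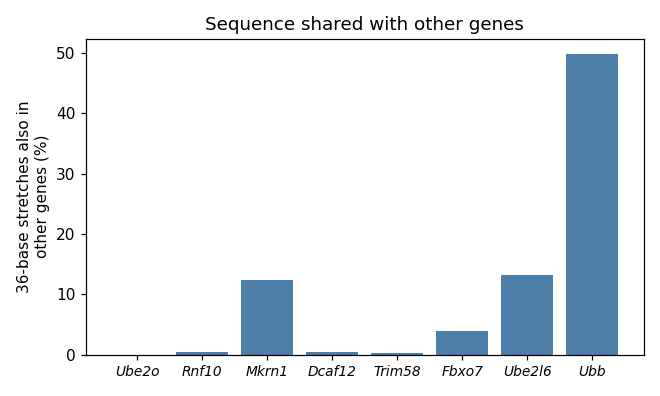
Percent of the distinct 36-base stretches of each gene's transcripts (GENCODE M21) that also occur in transcripts of another gene, 1 bar per gene. Ubb stands highest at 49.8%, Ube2l6 and Mkrn1 follow at 13.3% and 12.3%, and Ube2o is at 0%.

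The promoter windows of Rnf10, Dcaf12 and Mkrn1 are shown because they are the picked genes for which RefSeq gives a window. They are RefSeq sequences on GRCm38.p6, given 5′ to 3′ on the minus strand, on which all 3 genes lie, and run up to the start of the transcribed part, with the 5 letters of CCAAT on either strand in capitals.
Rnf10, chr5:115272899-115273145: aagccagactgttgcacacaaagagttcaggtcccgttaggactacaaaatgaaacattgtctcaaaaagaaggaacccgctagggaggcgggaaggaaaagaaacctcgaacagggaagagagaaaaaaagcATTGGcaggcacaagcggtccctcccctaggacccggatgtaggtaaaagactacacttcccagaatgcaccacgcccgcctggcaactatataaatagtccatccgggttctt
Dcaf12, chr4:41314902-41315151: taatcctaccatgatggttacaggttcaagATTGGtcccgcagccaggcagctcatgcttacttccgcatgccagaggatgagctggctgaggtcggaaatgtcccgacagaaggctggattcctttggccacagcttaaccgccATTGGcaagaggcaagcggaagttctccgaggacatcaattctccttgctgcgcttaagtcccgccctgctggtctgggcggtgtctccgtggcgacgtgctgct
Mkrn1, chr6:39420463-39420619: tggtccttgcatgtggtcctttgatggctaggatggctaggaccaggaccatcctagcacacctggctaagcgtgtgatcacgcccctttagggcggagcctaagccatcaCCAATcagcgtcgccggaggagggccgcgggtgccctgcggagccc
A further Mkrn1 window, chr6:39419777-39420026, holds no CCAAT and is not shown. RefSeq windows were found for 7 of the 8 genes, with no entry for Ube2o. CCAAT was also in a window of Trim58 and of Ubb, and 37.4% of 32851 promoter windows in the RefSeq table hold it on either strand. Searched on both strands, AGATAA is in 11.2% of all windows and in no window of the 7 genes. The same holds for TGATAA, which 9.05% of all windows contain, and for CCACACCC, with 3.56%. CACGTG, in 7.15% of all windows, was in a window of Fbxo7. These matches describe the letters in these windows and no binding was measured.

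Of the 8 genes, 5 passed the filter on low counts that left 272 genes for the tests, and each of these 5 had at least 1 read in every library. Mkrn1 had the most reads, 511 in all, followed by Ube2o with 217, Ubb with 183, Rnf10 with 170 and Dcaf12 with 139. Ube2l6 had 64 reads in 15 libraries, Fbxo7 had 4 reads and Trim58 had 1 read. Summed reads of the 8 genes were 55 to 117 in AG libraries (median 107.5), 29 to 84 in MG (median 58.5) and 53 to 92 in GC (median 68). As a share of all counts the sum was 0.0511% ± 0.0130 in AG (SD, n = 6), 0.0465% ± 0.0202 in MG (n = 6) and 0.0503% ± 0.0106 in GC (n = 5), and these ranges of 1 SD overlap.

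**Figure D2:**
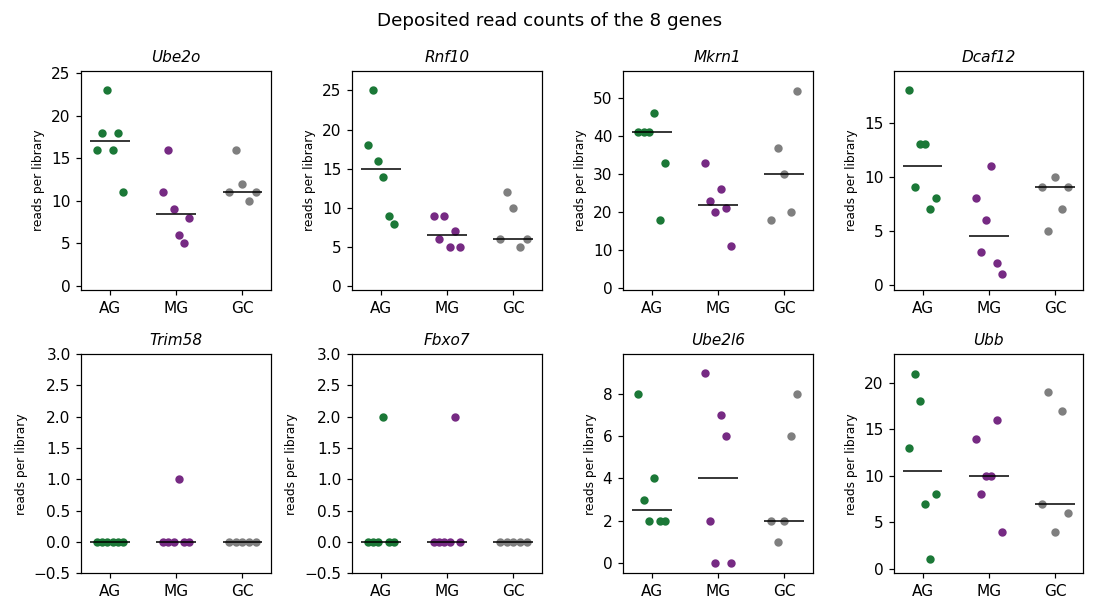
Deposited reads per library of each of the 8 genes (y axis) in AG, MG and GC, with 1 point per library and a line at the group median. The AG median lies above the MG median for Ube2o, Rnf10, Mkrn1 and Dcaf12, while Trim58 and Fbxo7 are at 0 in nearly every library.

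Per length of transcript, by the deposited RPKM, Mkrn1 and Ubb were the highest of the 6 genes with 5 or more reads in all. Mkrn1 averaged 2.09 ± 0.750 RPKM in AG (SD, n = 6), 1.28 ± 0.712 in MG (n = 6) and 2.18 ± 1.05 in GC (n = 5), and Ubb averaged 1.60 ± 1.09, 1.54 ± 0.809 and 1.83 ± 0.987. In AG, Rnf10, Dcaf12 and Ube2o lay close together at 0.886 ± 0.419, 0.885 ± 0.504 and 0.867 ± 0.387 RPKM, within 1 SD of each other, and Ube2l6 was at 0.503 ± 0.455. In MG these genes came in another order, again within 1 SD of each other, with Ube2o at 0.485 ± 0.338, Ube2l6 at 0.454 ± 0.539, Rnf10 at 0.407 ± 0.213 and Dcaf12 at 0.350 ± 0.259. The deposited RPKM uses other library totals than the counts, so differences between groups in RPKM are not comparable with the count-based levels below.

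The choice of scaling sets how the groups compare, so the levels of the 6 genes with 5 or more reads in all are given on both. CPM, counts set to a fixed library total, divides each gene's reads by all reads of the library, whereas TMM, a trimmed mean of gene ratios, multiplies each library total by a factor so that most tested genes stay level. A group of 4 very abundant genes, Tmem38b, Polr2m, Lars2 and Rn18s-rs5, held 86.9% to 91.7% of the counts in AG libraries, 70.6% to 83.5% in MG and 76.9% to 83.1% in GC. The TMM factors were 0.482 to 0.907 in AG (median 0.614), 0.577 to 1.92 in MG (median 1.47) and 0.525 to 1.74 in GC (median 1.38). MG replicate 6, at 0.577, and GC replicate 4, at 0.525, stand apart from their groups and lie within the AG range. The share of the 4 abundant genes thus moved with the groups, and its part in the results below was not tested.

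Ube2o, on chr11:116537740-116581447, minus strand, encodes a large hybrid enzyme with E2 and E3 activity that marks ribosomal proteins and unassembled alpha globin in reticulocytes. Its reads per library were 11 to 23 in AG (median 17), 5 to 16 in MG (median 8.5) and 11, 16, 12, 10 and 11 in GC replicates 1 to 5. After TMM scaling it stood at 81.3 to 281 CPM in AG (median 142), at 20.5 to 76.9 CPM in MG (median 60.7) and at 80.3, 59.3, 74.5, 100.3 and 45.9 CPM in the GC libraries. Every MG library was below every AG library on this scale, and 1 of 6 MG libraries was below all GC libraries. The mean was 154 ± 66.9 CPM in AG (SD, n = 6), 56.0 ± 19.9 in MG (n = 6) and 72.1 ± 20.7 in GC (n = 5). By the total count, the means were 94.6, 72.1 and 85.4 CPM, and 3 of 6 MG libraries were below all AG libraries.

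Rnf10, on chr5:115241412-115272898, minus strand, encodes a RING finger ubiquitin ligase that marks proteins of the small ribosomal subunit. Its reads were 8 to 25 in AG (median 15), 5 to 9 in MG (median 6.5) and 6, 12, 10, 5 and 6 in GC. On the TMM scale the range was 92.3 to 157 CPM in AG (median 120), 28.7 to 68.4 CPM in MG (median 40.3), and 43.8, 44.5, 62.1, 50.2 and 25.0 CPM in GC. Every AG library was above every MG and every GC library, whereas MG and GC overlapped. The mean was 123 ± 24.1 CPM in AG (SD, n = 6), 42.2 ± 14.7 in MG (n = 6) and 45.1 ± 13.4 in GC (n = 5). The variance among libraries of 1 group was 0.598 to 0.859 times that of counting alone, against 1.00 to 3.03 times for Ube2o, 1.67 to 4.72 for Mkrn1, 2.10 to 4.74 for Dcaf12, 2.19 to 3.61 for Ube2l6 and 1.06 to 7.48 for Ubb. By the total count, its means were 79.5, 53.3 and 55.3 CPM, and the groups overlapped.

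Mkrn1, on chr6:39397804-39420462, minus strand, encodes makorin, a zinc finger ubiquitin ligase that binds RNA. It had 18 to 46 reads in AG (median 41), 11 to 33 in MG (median 22) and 18, 37, 30, 20 and 52 in GC. On the TMM scale it stood at 185 to 431 CPM in AG (median 320), 86.1 to 211 CPM in MG (median 131), and 131, 137, 186, 201 and 217 CPM in GC. In MG, 5 of 6 libraries were below all AG libraries and 3 of 6 were below all GC libraries. The mean was 319 ± 100 CPM in AG (SD, n = 6), 137 ± 50.1 in MG (n = 6) and 175 ± 38.4 in GC (n = 5), while by the total count the means were 197, 179 and 210 CPM, which puts GC highest.

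Dcaf12, on chr4:41291300-41314889, minus strand, encodes a substrate receptor that brings proteins to a CUL4 and DDB1 ligase. It had 7 to 18 reads in AG (median 11), 1 to 11 in MG (median 4.5) and 9, 5, 10, 7 and 9 in GC. On the TMM scale it stood at 40.6 to 157 CPM in AG (median 107), 8.02 to 89.3 CPM in MG (median 28.0), and 65.7, 18.5, 62.1, 70.2 and 37.6 CPM in GC. The groups overlapped, with 3 of 6 MG libraries below all AG libraries. MG replicate 4, with 11 reads, was the highest MG library, and MG replicates 5 and 6 had 2 reads and 1 read, too few to fix a level. The mean was 101 ± 39.7 CPM in AG (SD, n = 6), 34.5 ± 31.5 in MG (n = 6) and 50.8 ± 22.0 in GC (n = 5), against 63.3, 43.3 and 59.8 CPM by the total count.

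Ubb was not picked for its values. It had 1 to 21 reads in AG (median 10.5), 4 to 16 in MG (median 10) and 7, 19, 4, 17 and 6 in GC. On the TMM scale the range was 15.6 to 114 CPM in AG (median 99.3), 32.1 to 81.1 CPM in MG (median 69.1), and 51.1, 70.4, 24.8, 171 and 25.0 CPM in GC. All 3 groups overlapped, with AG replicate 5 the lowest and GC replicate 4 the highest of the 17 libraries. The mean was 82.7 ± 37.1 CPM in AG (SD, n = 6), 61.0 ± 20.7 in MG (n = 6) and 68.4 ± 60.2 in GC (n = 5). By the total count the order of AG and MG turned, with means of 54.8, 81.3 and 68.5 CPM.

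Ube2l6, on chr2:84798828-84810335, plus strand, encodes an E2 enzyme that conjugates the ubiquitin-like protein ISG15. It had 2 to 8 reads in AG, 0 to 9 in MG and 2, 1, 2, 6 and 8 in GC, and the means were 31.5 ± 21.2 CPM on the TMM scale in AG (SD, n = 6), 23.0 ± 24.3 in MG (n = 6) and 24.9 ± 22.5 in GC (n = 5). By the total count the order of AG and MG turned, with means of 20.5 ± 16.8, 32.7 ± 32.6 and 24.0 ± 14.7 CPM, within 1 SD of each other. Trim58, on chr11:58640465-58652404, plus strand, encodes a ligase of late erythroblasts, and its only read was in MG replicate 4. Fbxo7, on chr10:86021972-86051873, plus strand, encodes an F-box adaptor of a cullin ligase, and it had 2 reads each in AG replicate 4 and MG replicate 5. A library with no read allows a level of up to 3 reads, which was 13.5 to 46.9 CPM on the TMM scale in AG, 12.3 to 24.3 CPM in MG and 11.1 to 30.1 CPM in GC. A difference in Trim58 or Fbxo7 was therefore not detectable at this depth. These limits and the other errors from reads cover counting only, because reads without molecular identifiers are not independent molecules.

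**Figure D3:**
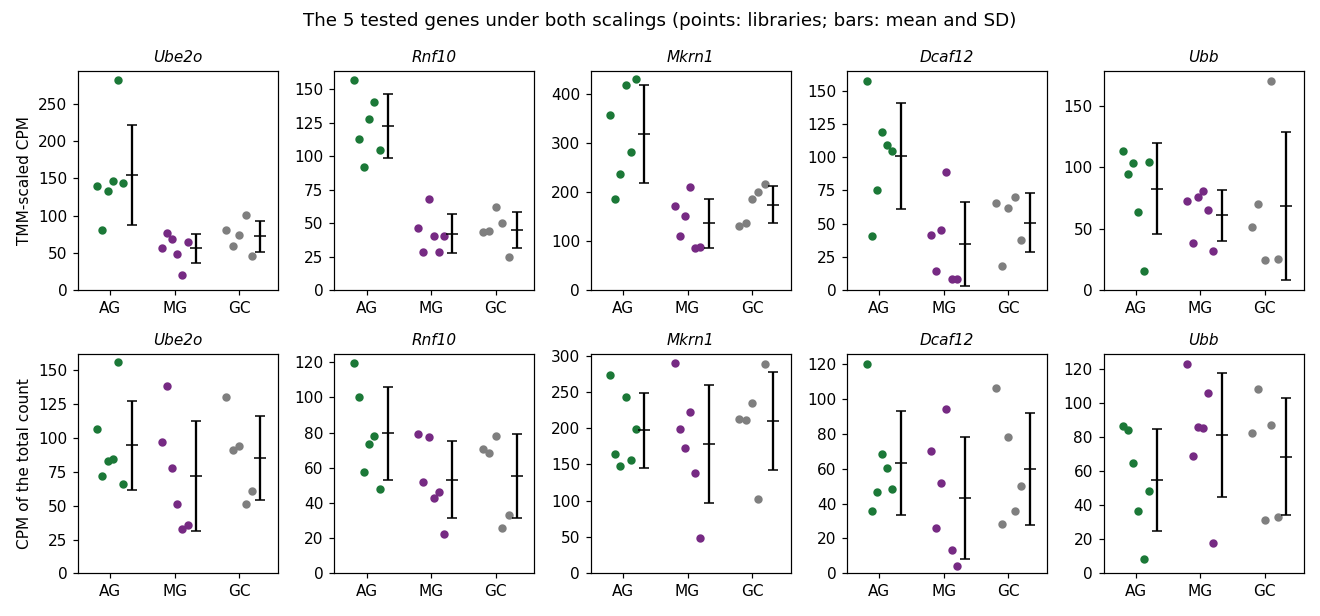
Levels of the 5 genes that passed the filter, in CPM after TMM scaling (upper row) and in CPM of the total count (lower row), with 1 point per library and the group mean and SD as bars. In the upper row, MG lies below AG without overlap for Ube2o and Rnf10, and in the lower row the groups overlap for all 5 genes.

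The comparison of MG with AG, both on the ISS, asks about gravity. In the quasi-likelihood fit of edgeR over all 17 libraries, Dcaf12 had a log2 fold change of -1.56 (SE 0.55), Rnf10 of -1.53 (SE 0.38), Ube2o of -1.43 (SE 0.40) and Mkrn1 of -1.22 (SE 0.37). These were the ranks 5, 8, 11 and 16 from the lowest of 272 genes, whose median was 0.17, and they restate the choice of the genes. Being lower by over 1.5-fold at any p held for 14% of all genes, and groups lower without overlap, as for Ube2o and Rnf10, for 1.84%. Of all 272 genes, 0% passed an adjusted p under 0.05 and 13.2% an unadjusted p under 0.05 in edgeR, while DESeq2 called 9 genes, edgeR's exact test 5 and limma 0. Ubb, the tested gene that was not picked, had a log2 fold change of -0.47 (SE 0.49, edgeR adjusted p = 0.777) and did not pass.

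The same fit compared each flight group with the ground. Both comparisons share libraries with that of MG and AG, so the picked genes are again described without a test. In MG against GC, the log2 fold changes were -0.56 (SE 0.58) for Dcaf12, -0.36 (SE 0.38) for Mkrn1, -0.34 (SE 0.42) for Ube2o and -0.10 (SE 0.40) for Rnf10, each within 1 SE of 0, beside a median of -0.0034 over all genes. Ubb was at -0.10 (SE 0.52, edgeR adjusted p = 0.994), and 0% of all genes passed an adjusted p, with 4.41% at an unadjusted p under 0.05 in edgeR and 0 calls in DESeq2, the exact test and limma. In AG against GC, the values were 1.44 (SE 0.40) for Rnf10, 1.08 (SE 0.42) for Ube2o, 1.00 (SE 0.56) for Dcaf12 and 0.86 (SE 0.38) for Mkrn1, beside a median of -0.21. Being higher by over 1.5-fold at any p held for 19.5% of all genes, and groups higher without overlap, as for Rnf10, for 1.1%. Ubb was at 0.37 (SE 0.52, edgeR adjusted p = 0.774), while 1.47% of all genes passed an adjusted p. MG and GC overlapped for all 5 tested genes on the TMM scale. Without MG replicate 6, whose TMM factor stands apart, the picked genes were at -1.52 (Rnf10), -1.47 (Ube2o), -1.38 (Dcaf12) and -1.12 (Mkrn1) in MG against AG. In MG against GC, Dcaf12 was at -1.05 without MG replicate 4 and at -0.32 without MG replicate 5, and Rnf10 was at 0.052 without GC replicate 3. Ube2o was at -0.16 without MG replicate 5, and Mkrn1 was at -0.24 without GC replicate 5. Without GC replicate 4, Ubb turned to 0.49 in MG against GC and stood at 0.96 in AG against GC. Without GC replicate 5, it moved the other way, to -0.30 in MG against GC and 0.16 in AG against GC.

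Without scaling beyond the total count, the log2 fold changes of MG against AG shrank to -0.59 for Rnf10, -0.57 for Dcaf12, -0.40 for Ube2o and -0.15 for Mkrn1, and Ubb turned to 0.52. The median over all genes on that scale was 1.21, so each picked gene lay below that median. In AG against GC, the values by the total count were 0.54 for Rnf10, 0.16 for Ube2o, 0.11 for Dcaf12, -0.091 for Mkrn1 and -0.30 for Ubb, beside a median of -1.11. Under the size factors of DESeq2, or with the 4 abundant genes left out before scaling, the values stayed close to those with TMM.

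**Figure D4:**
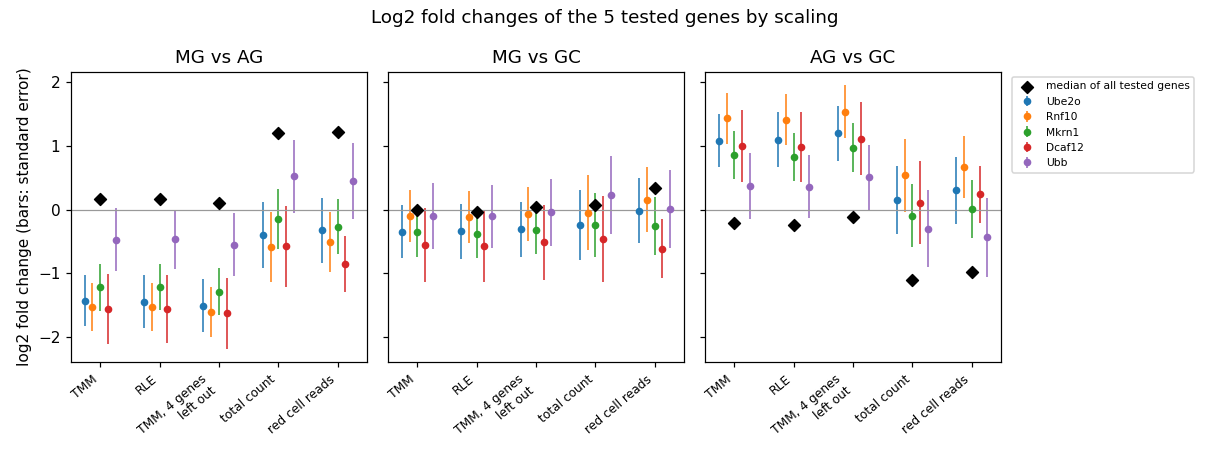
Log2 fold changes (y axis, bars are standard errors) of the 5 genes that passed the filter under 5 scalings (x axis) in each pair of groups, with the median of all tested genes as a diamond. With TMM, the picked genes in MG against AG lie at -1.22 to -1.56 and the median at 0.17, and with the total count they lie at -0.15 to -0.59 and the median at 1.21.

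The 3 genes outside the picked 4 with too few reads for the filter were compared by exact two-sided Mann-Whitney tests on TMM-scaled CPM, together with Ubb, in 12 comparisons. The exact p for Ubb was 0.240 in MG against AG, and 0.537 in both comparisons with GC. For Ube2l6 the exact p was 0.370 in MG against AG, 0.619 in MG against GC and 0.662 in AG against GC. For Fbxo7 and Trim58 it was 1 in each comparison, and every adjusted p was 1. With all 6270 genes of at least 5 reads in the fit, Ube2l6 had a log2 fold change of -0.24 in MG against AG (SE 0.75, edgeR adjusted p = 0.969).

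Across the 17 libraries, log2 TMM-scaled CPM of the picked genes had Pearson r of 0.71 to 0.89 between pairs, which the choice of genes lower in MG than in AG builds in and which also rests on 1 scaling factor shared by all genes of a library. After the group means were removed, r was 0.81 for Mkrn1 and Dcaf12, 0.55 for Rnf10 and Dcaf12, 0.53 for Ube2o and Rnf10, 0.47 for Ube2o and Dcaf12, and 0.29 for Mkrn1 with Ube2o and with Rnf10. Ubb, which was not picked, had r of -0.18 to 0.21 with them on that measure. The genes outside the 8 most like the mean of the 5 tested genes, picked genes included, were Pabpc1, a poly(A) binding protein, with r of 0.90, Polr2m, a subunit of RNA polymerase II and one of the 4 abundant genes, with 0.86, Alas2, the first enzyme of heme synthesis in red cells, with 0.84, Fam46c, a poly(A) polymerase, with 0.83, and Epb41, the red cell membrane skeleton protein 4.1, with 0.82. Their log2 fold changes in MG against AG, which this likeness favours and which are given without a test, were -1.67 (SE 0.38) for Polr2m, -1.32 (SE 0.48) for Alas2, -1.20 (SE 0.40) for Pabpc1, -1.08 (SE 0.43) for Epb41 and -1.01 (SE 0.57) for Fam46c.

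Red cell genes were also at lower values in MG than in AG on the TMM scale, and their part in the values of the picked genes was not tested. Of a list of 35 red cell genes, 32 were in the tables, 31 had reads and 12 were tested, and all 12 had a log2 fold change below 0 in MG against AG, with a median of -1.04, 6 of them at an unadjusted p under 0.05 and 0 at an adjusted p. Of all 272 tested genes, 96 were below 0, and 13.2% had an unadjusted p under 0.05 in edgeR in either direction. The median of the 12 red cell genes was -0.21 in MG against GC and 0.85 in AG against GC. Bpgm, which makes the 2,3-bisphosphoglycerate of red cells, was the gene of the list that passed, 1.85 higher on the log2 scale in AG than in GC (SE 0.46, edgeR adjusted p = 0.0335). It did not pass in limma, with all genes of at least 5 reads, with red cell scaling or without GC replicate 2, 3 or 5, where 0 genes passed. Globin transcripts made up 86.1% to 93.7% of the reads of the list, and Klf1, a red cell transcription factor, was listed at 0. The list summed to 1007 to 3039 reads in AG libraries (median 2164.5), 389 to 2455 in MG (median 1570) and 893 to 2663 in GC (median 1781). As a share of all counts the list was not lower in MG, at 0.605% to 2.02% in AG (median 1.00%), 0.174% to 2.10% in MG (median 1.35%) and 0.458% to 3.15% in GC (median 1.01%), with overlapping ranges. The 3 genes with the most reads were Hba-a2 with 14517, Hbb-bs with 6054 and Hba-a1 with 3570. No marker tells reads of reticulocytes from those of older or younger red cells here. In bulk plasma, fewer red cells releasing RNA and less RNA of these genes per cell cannot be told apart.

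Set against these reads, the groups overlapped. The picked genes together had 30.6 to 59.6 reads per 1000 red cell reads in AG (median 42.0), 19.6 to 64.3 in MG (median 29.3) and 16.5 to 47.0 in GC (median 39.3). When the libraries were scaled to the reads of the red cell list, a setting chosen after seeing the data, the log2 fold changes in MG against AG were -0.85 for Dcaf12, -0.51 for Rnf10, -0.32 for Ube2o and -0.27 for Mkrn1, beside a median over all genes of 1.22.

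Markers of other sources were set beside these. Of 15 platelet genes, 9 were tested, and their median log2 fold change was 0.24 in MG against AG, -0.20 in MG against GC and -0.45 in AG against GC, with 0 at an adjusted p under 0.05. Platelet genes summed to 19 to 689 reads in AG libraries, 169 to 744 in MG and 150 to 1070 in GC. Of 20 leukocyte genes, Lyz2 was tested, at 0.084, 0.090 and 0.0061 (edgeR adjusted p = 0.985, 0.994 and 0.995). Of 13 liver genes, Alb was tested, with 0 to 116 reads in AG, 0 to 294 in MG and 1 to 8 in GC, at log2 fold changes of 0.83 (SE 1.16), 4.27 (SE 1.46) and 3.43 (SE 1.44) in the same order of pairs, which did not pass (edgeR adjusted p = 0.803, 0.604 and 0.366). Of 12 skeletal muscle genes, 0 passed the filter, and they summed to 1 to 30 reads per library. By the total count, the median summed level of the platelet list was 1587 CPM in AG, 3960 CPM in MG and 5470 CPM in GC. In the same order, the medians were 130, 318 and 228 CPM for leukocyte genes and 80.4, 359 and 111 CPM for liver genes. They were 30.5, 49.3 and 46.9 CPM for muscle genes, and the ranges of the groups overlapped for each list.

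**Figure D5:**
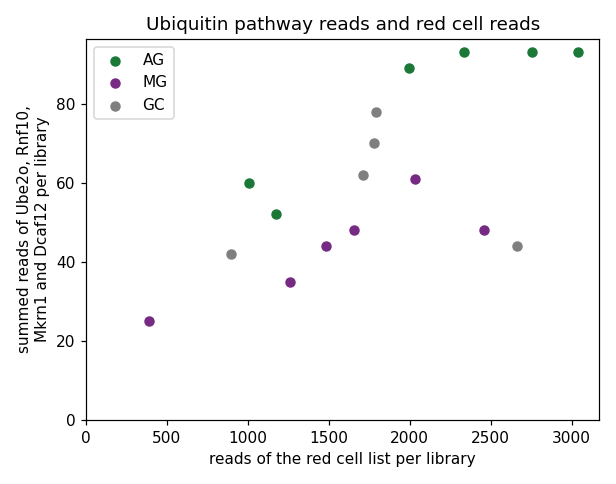
Summed reads of Ube2o, Rnf10, Mkrn1 and Dcaf12 (y axis) against the reads of the red cell list (x axis), with 1 point per library. AG libraries reach 93 summed reads, and MG libraries reach 61 over a range of red cell reads that overlaps AG.

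The rest of the ubiquitin system was sparse in these libraries. The 5 lists of the pathway held 140 further gene symbols, some of them old and new symbols of the same gene. Of these, 138 were in the tables, 135 had reads and 1 passed the filter, and together they had 61 to 238 reads per library (median 127). That gene was March2, a membrane-bound ligase with 166 reads, and its log2 fold changes of -0.083, -0.091 and -0.0077 in MG against AG, MG against GC and AG against GC were within 1 SE of 0 (edgeR adjusted p = 0.985, 0.994 and 0.995). Of 37 symbols of ligases and adaptors of red cell precursors, 33 had reads, led after March2 by Rnf11 with 115 reads and Wdr26, a subunit of the ligase complex with Maea, with 74. Of 31 E2 enzymes, 30 had reads, led by Ube2h with 51 reads, Ube2k with 44 and Ube2r2 with 41. All 8 ubiquitin and E1 genes had reads, among them Rps27a, which encodes ubiquitin fused to a ribosomal protein, with 54 and Uba7, the E1 of ISG15, with 34.

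The 24 deubiquitinases and ubiquitin receptors all had reads, led by Usp34 with 57, Usp32 with 54 and Usp9x with 51. All 40 proteasome genes had reads, led by Psme3, a subunit of a proteasome activator, with 55 and Psmd8 with 28. On the TMM scale, the median summed level of the proteasome list was 181 CPM in AG, 158 CPM in MG and 131 CPM in GC, and the ranges overlapped, from 75.0 to 274 CPM in AG, 72.1 to 305 CPM in MG and 83.5 to 181 CPM in GC. The E2 list had medians of 160, 153 and 167 CPM and the ligase list of 299, 282 and 271 CPM, while the list of deubiquitinases and receptors had 131, 185 and 161 CPM and the ubiquitin and E1 list 79.8, 87.4 and 77.8 CPM, all with overlapping ranges. By the total count the median was higher in MG than in AG for each of the 5 lists, at 176 against 115 CPM for the proteasome, 236 against 89.7 CPM for E2 enzymes, 409 against 208 CPM for ligases, 259 against 93.0 CPM for deubiquitinases and receptors and 104 against 56.4 CPM for ubiquitin and E1 genes, and these ranges overlapped too.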

How the data were processed

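Plasma cfRNA of 17 mice was measured, 1 library per mouse, and groups were taken from the sample labels. The authors prepared the libraries with a kit for small RNA, mapped paired reads of 36 bases to mm10 in CLC Genomics Workbench 10.1.1 and deposited a count of reads per gene without normalization, an RPKM value scaled to gene length and mapped reads, and a TPM value, which was not used. Strand setting, trimming and the handling of reads with several matches are not given in the sources used here. For the 8 genes the deposited RPKM held the same reads as the counts, but its library totals differ from those of the counts. Ube2o, for example, was at 51.3 CPM of the total count and 0.116 RPKM in MG replicate 4. In MG replicate 6 it was at 35.8 CPM and 0.384 RPKM.

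The tests on counts were run with edgeR 4.0.16 under R 4.3.3 (filterByExpr, TMM, quasi-likelihood F-test, all 17 libraries in one fit, no covariate, Benjamini-Hochberg adjustment over 272 genes). The standard error is the log2 fold change divided by the root of F. The biological coefficient of variation was 0.574. DESeq2 1.42.0, edgeR's exact test and limma 3.58.1 on log2(RPKM + 1) were alternatives. Exact Mann-Whitney tests used scipy 1.17.1. Counts of 84657 to 277682 per library limit precision. On simulated counts for MG against AG, 222 genes were tested, of which 86 were given a log2 change of 2. The quasi-likelihood test recovered 90.7% of these 86, with 2.5% false among its calls. Recovery of smaller changes, such as those of Ube2o, Rnf10, Mkrn1, Dcaf12 and Ubb over all 17 libraries, was not tested. Within groups no libraries were duplicates (lowest chi-square per degree of freedom 5.46).

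The 8 genes, the gene lists (5 of the ubiquitin system and those of red cells, platelets, leukocytes, liver and muscle) and the tests were chosen with earlier results of these data known. Genes outside the 8 are named if they belong to a list and pass an adjusted p under 0.05, may be named if among the 3 with the most reads of a list, and are named if they are among the 5 tested genes most like the 8. A gene of the lists is not reported here, and Klf1 was named after its values were seen. Gm8797, Gm1821, Gm10244 and Mkrn1-ps1 were named for sequence, and Tmem38b, Lars2 and Rn18s-rs5 for their share of counts. Positions are from GENCODE M21 on GRCm38, which is mm10.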

Additional observations from a re-analysis of the deposited data

Results flagged for a closer look

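Ube2o in AG replicate 5 lay far from the other AG libraries after TMM scaling, at 281 CPM, with a gap of 0.676 of the group's range to its nearest neighbour. This value rests on 18 reads, as many as in AG replicate 2, and on a TMM factor of 0.5685, and it was 156 CPM by the total count. Without this library the log2 fold change of Ube2o was -1.19 in MG against AG and 0.85 in AG against GC. It was the 1 value that stood out among 18 groups tested for such gaps, of which chance gives 0.9.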

How the results depend on the processing

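Among the 8 genes, Ubb was the only one outside the picked 4 that the fits tested, joined by Ube2l6 with all genes of at least 5 reads. Neither passed an adjusted p under 0.05 in any pair under any alternative, including each library left out. This covers few genes, and the Ubb values are uncertain as values of that gene alone. Counts over all genes did change with other settings, of which red cell scaling was chosen after seeing the data. In MG against AG the count of 0 became 48 by the total count (all 48 higher in MG), 6 with all genes of at least 5 reads (4 higher), 9 in DESeq2 (8 lower), 5 in the exact test (all 5 lower), 1 with the libraries of the pair (lower), 2 with red cell scaling (both higher) and 36 by the study's own criterion (over 1.5-fold, p under 0.05 before adjustment; 23 lower). In MG against GC it became 10 with at least 5 reads (9 higher) and 12 under the criterion (10 higher). In AG against GC the count of 4, all higher in AG, became 9 by the total count (8 lower), 0 with at least 5 reads, 8 in DESeq2 and 7 in the exact test (all higher), 0 in limma, 1 with the pair (higher), 0 with red cell scaling and 32 under the criterion (17 higher). The cut-offs of this criterion were applied to the quasi-likelihood p of 272 genes. The study used another test in CLC Genomics Workbench, so these counts are not comparable with its own. Leaving out 1 library gave 0 to 10 calls in MG against AG (10 without MG replicate 4, 5 without AG replicate 2), 0 to 1 in MG against GC and 0 to 6 in AG against GC (0 without GC replicate 2, 3 or 5). The median log2 fold change of the tested genes among the 8 restates the choice of 4 of these 5 genes and was -1.43 in MG against AG, and -0.40 by the total count, -0.41 in limma and -0.32 with red cell scaling, beside 0.17, 1.21, 0.26 and 1.22 over all tested genes. In AG against GC it was 1.00, and 0.11, 0.079 and 0.24 in the same order, beside -0.21, -1.11, -0.50 and -0.98 over all tested genes. Leaving out 1 library gave medians of -1.56 to -1.24 in MG against AG, -0.41 to -0.16 in MG against GC and 0.79 to 1.20 in AG against GC. Mkrn1 in AG against GC turned from 0.86 to -0.091 by the total count and to -0.012 in limma. The limma values are differences of log2(RPKM + 1). At the RPKM of these genes the added 1 makes them smaller than log2 ratios, so they are not the same measure. With the replicate number as a block, 3 genes were called in MG against AG (all lower) and 5 in AG against GC (all higher). Of 16 pairs of same-numbered libraries, 7 had deviations correlated above 0.1 (r of -0.45 to 0.56). Pairs of different numbers were not compared, so whether the numbers pair the libraries was not settled. Fits to 1 pair of groups dropped some of the 8 genes through the filter. The causes of these changes were not tested. Medians over the 8 cover the 5 genes past the filter. The counts of 1 to 52 reads per library of these 5 genes limit what could be detected.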
